A study of Mus musculus with 18 samples.

Results

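The genes described are 10 members of the BCL2 family, which sets whether a cell survives or enters apoptosis: Bcl2a1a, Bcl2a1b, Bcl2a1d, Bcl2, Bcl2l1, Mcl1, Bcl2l11, Bax, Bak1 and Bid. They were looked up by gene symbol in the deposited comparison tables, which listed 8 of them. Bcl2a1a and Bcl2a1d, which those tables did not list, were matched by transcript identifier after the files were seen, so that all 10 were found among 38887 listed genes. Their RNA was measured in bone marrow-derived macrophages (BMMs) of adult female C57BL/6J mice, cultured with M-CSF, the growth factor of macrophages. There were 18 libraries, 3 for each of 6 groups: WT, GILZ KO and GILZ TG, each untreated or given 100 ng/ml lipopolysaccharide (LPS, from the outer membrane of E. coli) for 4 h. GILZ is the glucocorticoid-induced leucine zipper protein encoded by Tsc22d3. By the study's methods every genotype, WT included, carried the Lyz2 tm1(cre)Ifo allele, which expresses Cre recombinase in myeloid cells. GILZ KO mice also had an exon of Tsc22d3 between loxP sites, and GILZ TG mice a Tsc22d3/Gilz-1 cDNA in the ROSA26 locus behind a loxP-flanked stop cassette.

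Proteins of this family act at the outer membrane of mitochondria. BCL2, BCL-XL (from Bcl2l1), MCL1 and A1 (from the Bcl2a1 genes) hold back cell death, and BAX and BAK1 open the membrane and release cytochrome c. BIM (from Bcl2l11) and BID belong to the BH3-only proteins, which bind the survival proteins or switch on BAX and BAK1. A1 is known as a survival protein of blood cells whose gene responds to NF-kB, a transcription factor switched on by LPS.

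Depth ranged from 14583055 to 38557029 reads per library (median 24450362). Tsc22d3 was at 15.8, 14.9 and 18.8 TPM (the transcript level scaled by transcript length and library total) in untreated WT, at 1.89, 2.81 and 2.31 TPM in GILZ KO and at 155.9, 159.8 and 152.0 TPM in GILZ TG. After LPS it was 4.56 to 5.81 TPM in WT, 2.50 to 3.28 TPM in GILZ KO and 127.2 to 140.6 TPM in GILZ TG, and the difference between GILZ KO and WT no longer passed the test (log2 fold change -0.69, adjusted p = 0.15, edgeR). Lyz2, the gene that carries Cre, was at 11048 to 15401 TPM in untreated WT, but at most 45.8 TPM in untreated GILZ KO and 53.1 TPM in untreated GILZ TG. The number of Cre alleles in each genotype is not given in the sources used here. In comparisons with WT, a difference in it and the GILZ genotype cannot be told apart. All 8 macrophage markers were expressed in every group, with summed levels of 3920 to 5090 TPM. Markers of other cells were higher in GILZ TG replicates 1 and 2. Untreated, 8 stromal markers summed to 100.8 and 115.2 TPM there and to at most 21.8 TPM in the other 7 libraries, with Lum listed at 0 in WT and GILZ KO. Similarly, 8 neutrophil lineage markers, S100a9 above all, summed to 153.8 and 403.6 TPM against at most 57.9 TPM, with Ly6g at 0 in WT and GILZ KO, and 8 B lineage markers to 93.6 and 157.8 TPM against at most 36.1 TPM, with Pax5 at 0 in all untreated libraries. After LPS the same replicates stood apart. The 8 T lineage markers summed to at most 3.94 TPM in any library, and Cd3e was at 0. In RNA of a whole culture, fewer cells of a type and less RNA per cell cannot be told apart.

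Among the members, the largest changes with LPS were those of the Bcl2a1 genes. Mice have several near-identical copies of the human BCL2A1 gene, and in GRCm38 Bcl2a1b (ENSMUSG00000089929) lies on chromosome 9 from 89199209 to 89207827, Bcl2a1a (ENSMUSG00000093809) from 88956900 to 88962419 and Bcl2a1d (ENSMUSG00000096581) from 88723285 to 88731914 on the other strand. The copies share sequence upstream of their starts too. Shown here, from the RefSeq promoters of GRCm38.p6, is a stretch upstream of each gene. Capitals mark 6 bases that Bcl2a1d lacks.
Bcl2a1b (chr9:89199089-89199164, plus strand): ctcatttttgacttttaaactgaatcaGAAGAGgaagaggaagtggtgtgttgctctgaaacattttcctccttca
Bcl2a1a (chr9:88956780-88956855, plus strand): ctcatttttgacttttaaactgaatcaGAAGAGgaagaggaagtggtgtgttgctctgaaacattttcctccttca
Bcl2a1d (chr9:88731915-88731984, minus strand): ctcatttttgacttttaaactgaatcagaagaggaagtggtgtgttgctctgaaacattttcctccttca
The stretches of Bcl2a1a and Bcl2a1b were identical over 76 bases, and Bcl2a1d shared 70 of the 76, or 92.1%. A link between these stretches and the levels of the genes was not tested. For these genes each read must be divided between the copies, and the deposited expected counts contain that estimate. The SD of this division was at most 1.29% of the count for Bcl2a1b, but for the few untreated reads of Bcl2a1a it was 21.6% to 103.5%, so Bcl2a1a without LPS is uncertain.

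Bcl2a1b was the only copy with a substantial level before LPS. It was at 129.47, 122.97 and 124.25 TPM in untreated WT, at 94.3, 98.2 and 84.6 TPM in GILZ KO and at 182.2, 189.8 and 167.9 TPM in GILZ TG. After LPS the levels were 1141, 1183 and 902.3 TPM in WT, 1016, 1090 and 1110 TPM in GILZ KO and 1296, 1211 and 1116 TPM in GILZ TG. Every LPS library lay far above every untreated one, and the genotypes, which were separate before, came close to each other after LPS. Bcl2a1b rose 13.3-fold in WT (log2 fold change 3.73 ± 0.11, SE), 18.04-fold in GILZ KO (4.17 ± 0.11) and 10.4-fold in GILZ TG (3.38 ± 0.10), with n = 3 in every group and adjusted p-values of 4.97e-15, 2.14e-15 and 1.50e-14 from edgeR's quasi-likelihood test with Benjamini-Hochberg adjustment. These and the later edgeR fold changes with LPS are relative to most other genes. On log2(TPM + 1) the rise of Bcl2a1b was smaller, at 3.08 in WT, 3.52 in GILZ KO and 2.74 in GILZ TG. Bcl2a1b shares its strand and part of its locus with Gm29094, so reads of both may mix.

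Bcl2a1d went from a trace to one of the highest members. It was at 4.30, 2.29 and 3.40 TPM in untreated WT and at 370.9, 388.9 and 287.0 TPM after LPS. In GILZ KO it was at 3.55, 3.43 and 4.01 TPM before and 366.7, 430.1 and 406.4 TPM after LPS, and in GILZ TG at 5.88, 3.04 and 4.87 TPM and 359.8, 327.3 and 411.9 TPM. The genotypes overlapped both before and after LPS. The log2 fold changes with LPS were 7.34 ± 0.22 in WT, 7.41 ± 0.22 in GILZ KO and 6.99 ± 0.21 in GILZ TG (adjusted p = 7.42e-15, 9.62e-15 and 1.11e-14, edgeR). An antisense gene, Gm10634, overlaps it on the opposite strand, and whether counting used the strand is not given in the sources used here.

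Bcl2a1a was close to the detection limit without LPS. It was at 0.210, 0.340 and 0.280 TPM in untreated WT, at 0, 0.350 and 0 TPM in GILZ KO and at 0.410, 1.73 and 0.590 TPM in GILZ TG. After LPS it reached 54.0, 49.0 and 35.4 TPM in WT, 50.6, 58.4 and 59.0 TPM in GILZ KO and 53.1, 44.2 and 34.1 TPM in GILZ TG. All LPS libraries were therefore above all untreated ones, and the genotypes overlapped after LPS. Its rise passed the test in all 3 genotypes (adjusted p = 4.64e-12, 3.93e-12 and 1.81e-11, edgeR). As the untreated groups held only 10, 3 and 30 reads in all, the rise is given as the ratio of reads per depth with an exact 95% interval that covers counting error only. It was 152.3 (82.5 to 318.2) in WT, 502.0 (171.4 to 2438) in GILZ KO and 44.7 (31.2 to 66.5) in GILZ TG. This ratio is scaled by depth alone, unlike the edgeR fold changes of the other copies. By the same ratio Bcl2a1b rose 8.25-fold in WT, 11.5-fold in GILZ KO and 6.62-fold in GILZ TG.

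**Figure D1:**
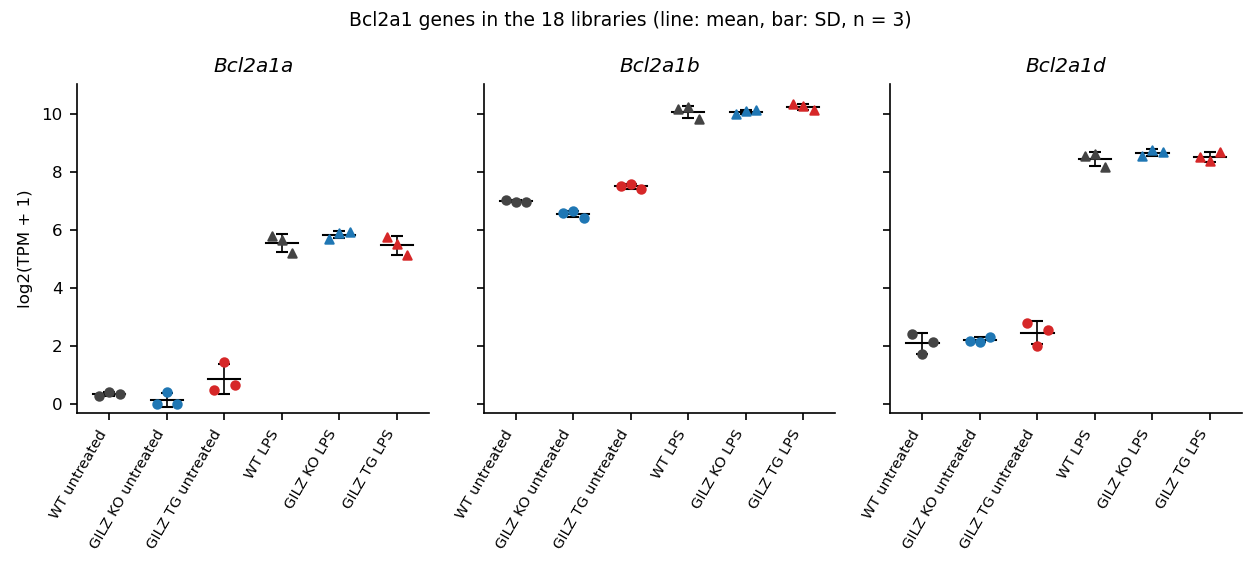
Levels of Bcl2a1a, Bcl2a1b and Bcl2a1d as log2(TPM + 1) in the 18 libraries, by group on the horizontal axis. Circles are untreated and triangles LPS libraries, colored by genotype, with a line at the mean and a bar for the SD of 3 libraries. All LPS libraries lie above all untreated ones in each panel, and untreated Bcl2a1b lies below the WT points in GILZ KO and above them in GILZ TG.

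The makeup of the Bcl2a1 transcripts shifted with LPS as well. Of the summed TPM of Bcl2a1a, Bcl2a1b, Bcl2a1c and Bcl2a1d, Bcl2a1b took 96.5% ± 0.76 (SD, n = 3) in untreated WT and 72.4% ± 0.62 after LPS. In GILZ KO its share went from 95.4% ± 0.62 to 69.6% ± 0.92 and in GILZ TG from 96.2% ± 0.78 to 74.1% ± 2.77. In turn, Bcl2a1d went from 2.55% ± 0.69 to 23.5% ± 0.22 in WT, from 3.81% ± 0.60 to 26.0% ± 0.91 in GILZ KO and from 2.48% ± 0.82 to 22.5% ± 3.15 in GILZ TG. Within each genotype the shares of untreated and LPS libraries did not overlap. As a sum, which is not affected by the division of reads between copies, the Bcl2a1 genes went from 135.0, 126.3 and 129.0 TPM to 1584, 1641 and 1234 TPM in WT, from 98.6, 102.4 and 89.4 to 1444, 1589 and 1587 TPM in GILZ KO, and from 188.7, 196.1 and 176.2 to 1723, 1590 and 1573 TPM in GILZ TG. The log2 fold change of the sum was 4.14 ± 0.11 in WT, 4.62 ± 0.11 in GILZ KO and 3.75 ± 0.11 in GILZ TG (adjusted p = 2.26e-15, 1.09e-15 and 6.25e-15, edgeR).

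Whether the size of the LPS response differed between genotypes was tested by the difference of their log2 fold changes. A fold change is relative to the untreated level, and that of Bcl2a1b was 84.6 to 98.2 TPM in GILZ KO and 167.9 to 189.8 TPM in GILZ TG. After LPS it was 1016 to 1110 TPM and 1116 to 1296 TPM. For Bcl2a1b, the response was larger in GILZ KO than in GILZ TG by 0.79 ± 0.14 (adjusted p = 0.0271, edgeR), and for the sum by 0.87 ± 0.14 (adjusted p = 0.0210, edgeR). Bcl2a1b was the only one of the 10 members called in this comparison, in which 0.121% of all 13169 genes tested were called. The direction was the same with each of the 12 libraries left out in turn, at 0.73 to 0.85. However, the call for Bcl2a1b was lost without GILZ KO untreated replicate 1 or 3, GILZ TG untreated replicate 1 or 2, GILZ KO LPS replicate 1 or 3 or GILZ TG LPS replicate 2, with adjusted p-values of 0.0719 to 0.109 (edgeR). It was also lost without the GILZ TG libraries of replicates 1 and 2, which had the higher stromal, neutrophil and B lineage markers (0.77, adjusted p = 0.514, edgeR). That fit has 1 untreated and 1 LPS library of GILZ TG, which are assumed to vary like the other groups, and the size of the difference hardly moved. Against WT, 0 members were called, with a response of Bcl2a1b higher by 0.44 ± 0.14 in GILZ KO (adjusted p = 0.632, edgeR) and different by -0.35 ± 0.14 in GILZ TG (adjusted p = 1.000, edgeR). At an unadjusted p under 0.05 there were 1 and 2 members in these comparisons, and DESeq2 and limma on TPM called 0 in both. Among all genes 0.0152% and 0.00759% were called at an adjusted p under 0.05, which is no measure for the unadjusted counts.

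Across the 10 members, most rose relative to the typical gene. In WT 8 members were called higher and 1 lower, where 33.5% and 35.1% of all 13169 genes were called higher and lower. In GILZ KO 9 were higher and 1 lower, with 33.2% and 35.4% of all genes, and in GILZ TG 8 were higher and 1 lower, with 33.6% and 35.1%. The median log2 fold change of the members was 0.96 in WT, 0.80 in GILZ KO and 0.99 in GILZ TG, and the median of all genes tested was -0.02 in each. The TPM ranges of untreated and LPS libraries did not overlap for 8, 9 and 9 of the 10 members. That was so for 81.2%, 83.7% and 80.9% of all genes tested, so a lack of overlap with LPS is not particular to the members. The choice of scale mattered for the small changes. edgeR's TMM normalization, on which these values rest, puts the median gene near 0. On log2(TPM + 1) the median gene lay at -0.51 in WT, -0.52 in GILZ KO and -0.51 in GILZ TG. There, 19.8%, 18.8% and 19.3% of the called genes were higher after LPS, in place of 48.9%, 48.4% and 48.9%. A rise by TMM is therefore a rise relative to most other genes, and members with small changes are given on both scales below.

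**Figure D2:**
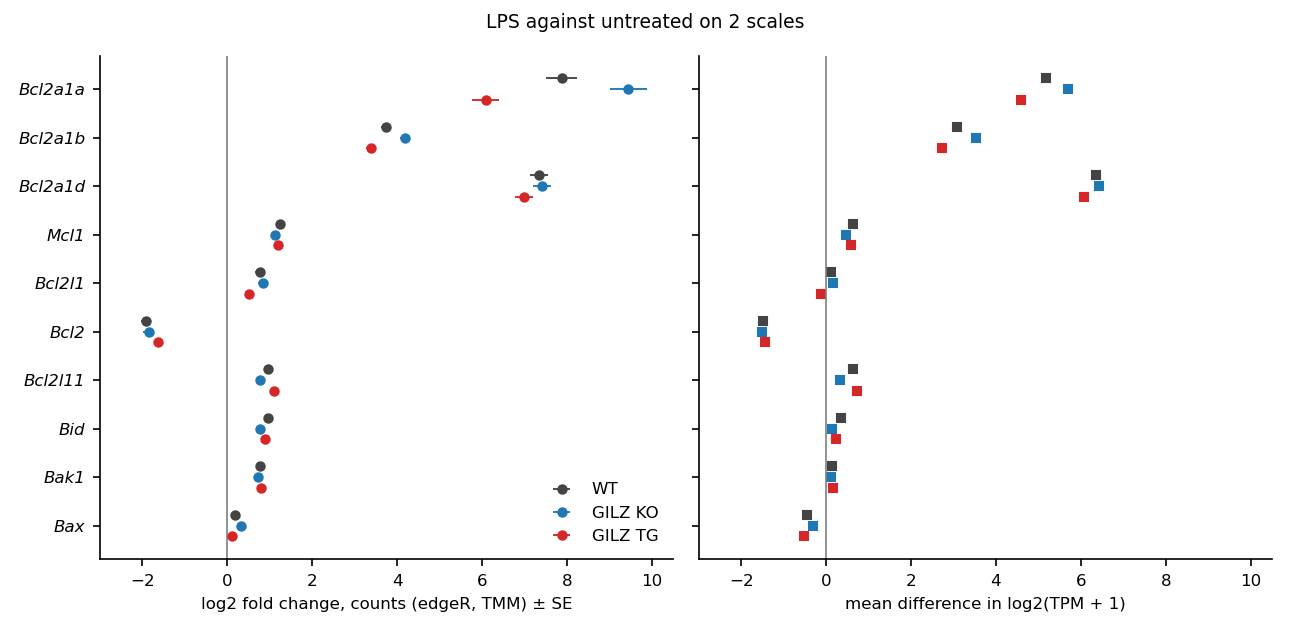
Change of the 10 members with LPS in WT, GILZ KO and GILZ TG. The left panel gives the log2 fold change of counts from edgeR with its SE, the right panel the difference of mean log2(TPM + 1) of 3 against 3 libraries. The Bcl2a1 genes rise and Bcl2 falls in both panels, whereas Bax lies above 0 on the left and below 0 on the right.

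Among the other survival genes, Bcl2, the founding member of the family (ENSMUSG00000057329, chromosome 1, 106538178 to 106714274), was the only member that fell on both the TMM and the TPM scale. It was low to begin with, at 3.59, 3.50 and 3.16 TPM in untreated WT, 3.82, 3.60 and 3.75 TPM in GILZ KO and 3.77, 4.23 and 3.74 TPM in GILZ TG. After LPS it was at 0.660, 0.480 and 0.600 TPM, 0.670, 0.570 and 0.750 TPM, and 0.730, 0.900 and 0.840 TPM in the same order. No LPS library reached the lowest untreated library. Relative to most other genes, Bcl2 was 3.795-fold lower in WT (log2 fold change -1.92 ± 0.12), 3.62-fold lower in GILZ KO (-1.85 ± 0.12) and 3.08-fold lower in GILZ TG (-1.62 ± 0.11), with adjusted p-values of 1.42e-10, 3.95e-10 and 7.03e-10 (edgeR). The fall in TPM was larger, with means going from 3.42 to 0.58 in WT, 3.72 to 0.66 in GILZ KO and 3.91 to 0.82 in GILZ TG. Bcl2 overlaps Gm37053 and Mir3473f on the same strand, whose reads may mix with it, and D630008O14Rik on the opposite strand.

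Mcl1, a survival gene whose protein is short-lived (ENSMUSG00000038612, chromosome 3, 95658788 to 95663176), rose from an already high level. It was at 301.3, 302.7 and 304.6 TPM in untreated WT and at 488.9, 469.3 and 457.9 TPM after LPS. In GILZ KO the levels were 297.8, 304.2 and 296.6 TPM before and 406.4, 428.0 and 419.7 TPM after LPS, and in GILZ TG 271.8, 252.5 and 320.9 TPM and 427.8, 393.0 and 454.0 TPM. Untreated and LPS libraries did not overlap in any genotype, as for 80.9% to 83.7% of all genes tested. The rise was 2.36-fold in WT (log2 fold change 1.24 ± 0.08), 2.17-fold in GILZ KO (1.12 ± 0.08) and 2.29-fold in GILZ TG (1.20 ± 0.08), with adjusted p-values of 7.33e-10, 2.94e-09 and 1.15e-09 (edgeR). On log2(TPM + 1) it was 0.64, 0.48 and 0.60 and also passed the test.

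Mcl1 was 1 of 2 members with a match to the NF-kB binding form GGNNTTTCC in the RefSeq promoter windows, which run from 250 bases before to 50 bases after a start. All 10 members had a window, 13 in all, and both strands were searched. The match in Mcl1 lies 28 to 20 bases before the start and is shown in capitals within the 60 bases upstream.
Mcl1 (chr3:95658661-95658720, plus strand): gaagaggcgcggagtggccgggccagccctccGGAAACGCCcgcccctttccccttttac
The other matches were in 1 of the windows of Bcl2l1, inside an exon of another Bcl2l1 transcript. Thus 2 of 13 windows of the members held the form, against 5.82% of 32851 windows of all genes. The interferon response form GAAANNGAA was in 0 of the 13 windows, against 8.56% of all. The Bcl2a1 stretches shown above hold neither form, which says only that these letters do not occur there.

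Bcl2l1 (ENSMUSG00000007659, chromosome 2, 152780668 to 152831728), which encodes BCL-XL, changed little in TPM. It was at 109.4 to 116.2 TPM in untreated WT and 115.8 to 134.2 TPM after LPS, at 105.9 to 111.0 and 117.2 to 131.1 TPM in GILZ KO, and at 117.7 to 127.4 and 99.9 to 131.7 TPM in GILZ TG. Untreated and LPS libraries overlapped in WT and GILZ TG. Relative to most other genes Bcl2l1 rose, with log2 fold changes of 0.76 ± 0.11, 0.83 ± 0.11 and 0.52 ± 0.11 in WT, GILZ KO and GILZ TG (adjusted p = 5.51e-06, 2.25e-06 and 0.000318, edgeR). On log2(TPM + 1) the differences were 0.12, 0.17 and -0.13, and none passed limma's test (adjusted p = 0.200, 0.0740 and 0.178).

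Both genes for BH3-only proteins rose relative to most other genes. Bcl2l11, which encodes BIM (ENSMUSG00000027381, chromosome 2, 128126038 to 128162547), was at 48.81, 38.99 and 32.69 TPM in untreated WT and 65.9, 58.7 and 62.3 TPM after LPS. In GILZ KO it was at 44.6 to 46.8 TPM before and 54.4 to 60.1 TPM after LPS, and in GILZ TG at 33.7 to 43.7 TPM and 58.6 to 64.1 TPM, without overlap in any genotype. The log2 fold changes were 0.96 ± 0.09, 0.76 ± 0.09 and 1.1 ± 0.09 (adjusted p = 4.05e-08, 9.23e-07 and 7.19e-09, edgeR), and the rise also passed the test on log2(TPM + 1) in all 3 genotypes. Bid (ENSMUSG00000004446, chromosome 6, 120891930 to 120916853), whose protein is cut and activated by caspase-8, was at 59.0 to 61.6 TPM in untreated WT and 73.5 to 79.2 TPM after LPS, with 55.0 to 65.3 and 63.8 to 70.1 TPM in GILZ KO and 51.2 to 63.0 and 65.4 to 69.5 TPM in GILZ TG. The log2 fold changes of Bid were 0.96 ± 0.08, 0.78 ± 0.08 and 0.89 ± 0.08 (adjusted p = 6.35e-09, 1.30e-07 and 1.92e-08, edgeR). In GILZ KO the untreated and LPS ranges of Bid overlapped, and on log2(TPM + 1) the difference of 0.15 did not pass limma's test (adjusted p = 0.0761). Bid overlaps Bcl2l13 and the pseudogene Gm17812 on the opposite strand and Gm44260 on the same strand, so reads of Bid and Gm44260 may mix.

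Along with its level, the transcripts of Bcl2l11 changed in estimated length. The effective length, a mean over the transcripts of a gene weighted by their estimated share, was 3569 ± 107.3 bases (SD, n = 3) in untreated WT and 2870 ± 169.0 bases after LPS. It went from 3318 ± 142.1 to 2836 ± 30.3 bases in GILZ KO and from 3502 ± 301.4 to 2901 ± 132.7 bases in GILZ TG. All 9 LPS libraries (2675 to 3048 bases) lay below all 9 untreated ones (3155 to 3787 bases). The change was noticed in the data and not tested. For comparison, the effective length of Bax lay between 782.2 and 789.1 bases and that of Bak1 between 2022 and 2065 bases in all libraries. Mcl1 varied more, at 3370 to 3403 bases untreated and 3223 to 3398 after LPS, and so did Bcl2l1, at 2192 to 2285 and 2187 to 2309. In both the ranges overlapped. How many of all genes changed in length with LPS was not counted.

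**Figure D3:**
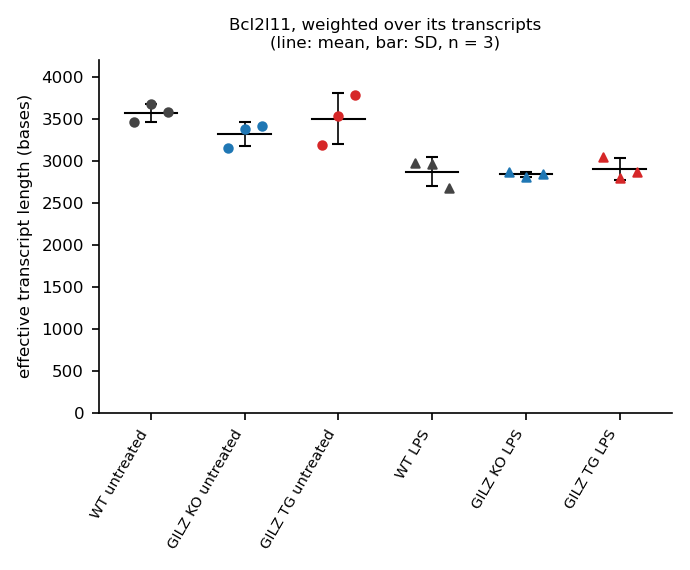
Effective transcript length of Bcl2l11 in bases in each library, by group, with a line at the mean and a bar for the SD of 3 libraries. The LPS libraries (triangles) all lie below the untreated libraries (circles).

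The effectors Bax and Bak1 were among the higher members, and their changes were small. Bax (ENSMUSG00000003873, chromosome 7, 45461697 to 45466898) was at 302.2, 317.7 and 342.5 TPM in untreated WT and 219.3, 242.9 and 244.0 TPM after LPS. In GILZ KO it was at 290.9, 320.4 and 318.6 TPM before and 240.9, 244.5 and 264.0 TPM after LPS, and in GILZ TG at 330.1, 325.0 and 357.5 TPM and 266.1, 225.1 and 218.3 TPM. In TPM all LPS libraries were thus lower, with differences of -0.44, -0.31 and -0.52 on log2(TPM + 1) that passed limma's test (adjusted p = 4.99e-05, 0.00133 and 1.06e-05). Relative to the median gene, however, Bax lay at 0.06, 0.21 and -0.00 on the same scale. By edgeR with TMM the sign turned, with log2 fold changes of 0.18 ± 0.09 in WT (adjusted p = 0.0771), 0.33 ± 0.09 in GILZ KO (adjusted p = 0.00378) and 0.12 ± 0.09 in GILZ TG (adjusted p = 0.237). The LPS response of Bax in GILZ KO differed from that in WT by 0.14 ± 0.13 (adjusted p = 0.919, edgeR), so the call in GILZ KO alone does not show a difference between genotypes. The direction for Bax thus depended on the scale, and reads of Gm45808 on the same strand may mix with it.

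Bak1 (ENSMUSG00000057789, chromosome 17, 27019810 to 27029009) was at 128.4 to 138.1 TPM in untreated WT and 137.1 to 157.0 TPM after LPS, at 124.7 to 131.0 and 135.2 to 138.5 TPM in GILZ KO, and at 117.7 to 131.7 and 132.5 to 141.7 TPM in GILZ TG. Ranges overlapped in WT only. Relative to most other genes it rose, with log2 fold changes of 0.77 ± 0.07, 0.73 ± 0.07 and 0.79 ± 0.07 (adjusted p = 1.40e-08, 3.12e-08 and 1.08e-08, edgeR). On log2(TPM + 1) the differences were 0.15, 0.11 and 0.16, and that in GILZ KO did not pass limma's test (adjusted p = 0.0846). Ggnbp1 lies on the opposite strand of the Bak1 locus.

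**Figure D4:**
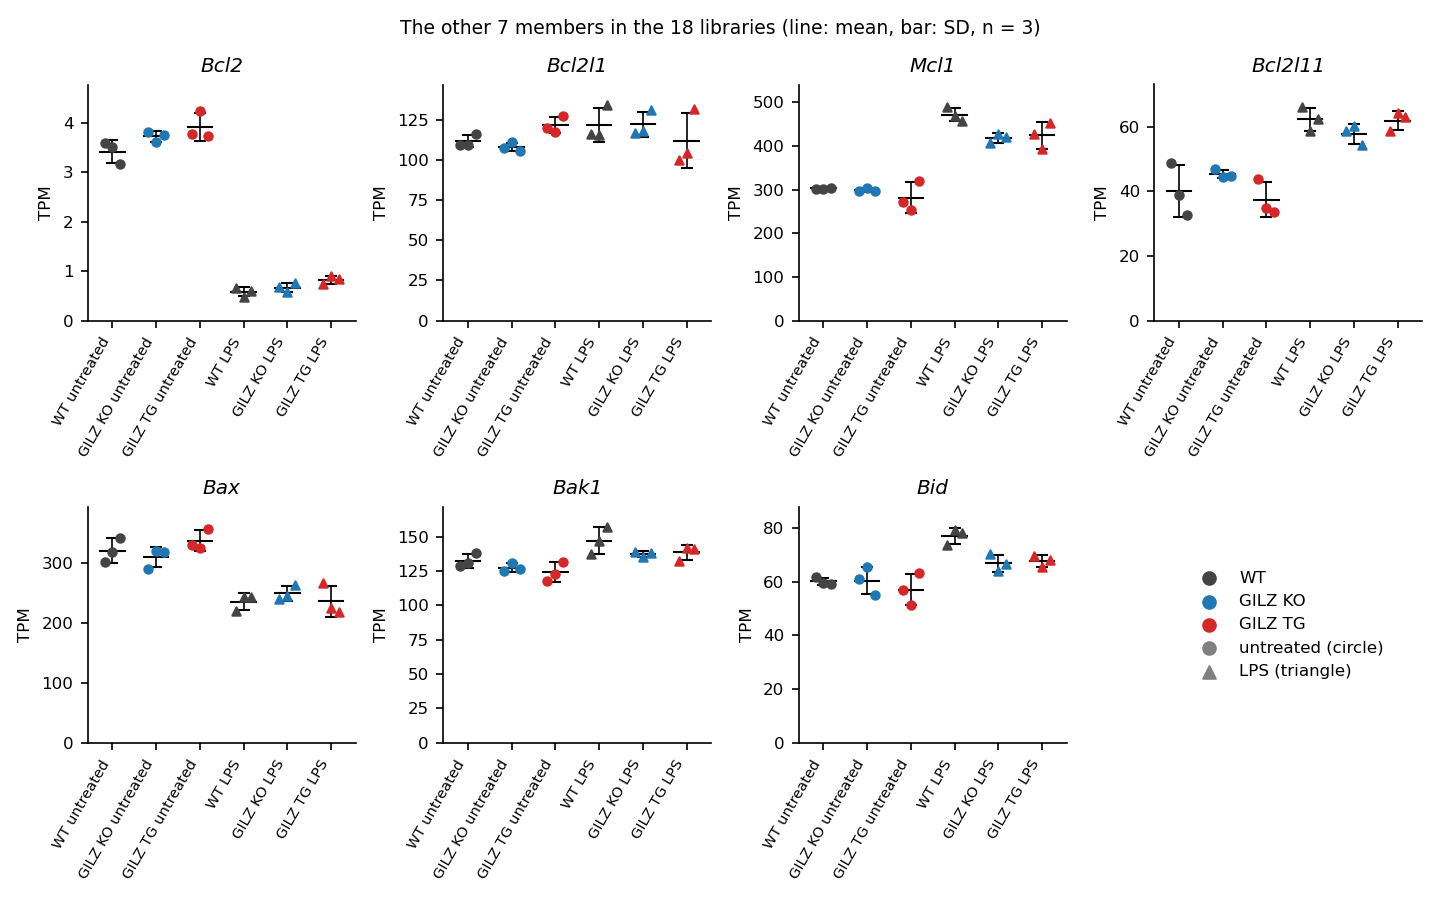
TPM of Bcl2, Bcl2l1, Mcl1, Bcl2l11, Bax, Bak1 and Bid in the 18 libraries by group, each panel with its own axis from 0. Lines are means and bars SDs of 3 libraries. Bcl2 drops and Mcl1 and Bcl2l11 rise with LPS in all 3 genotypes, and Bax is lower in TPM after LPS.

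The order of the members by TPM differed before and after LPS. In untreated WT it ran Bax, Mcl1, Bak1, Bcl2a1b, Bcl2l1, Bid, Bcl2l11, Bcl2, Bcl2a1d and Bcl2a1a, and the ranges of Bax and Mcl1, of Bak1 and Bcl2a1b and of Bcl2 and Bcl2a1d overlapped. Untreated Bcl2a1b had rank 4 in WT, rank 5 in GILZ KO, below Bcl2l1, and rank 3 in GILZ TG, above Bak1. After LPS the order ran Bcl2a1b, Mcl1, Bcl2a1d, Bax, Bak1, Bcl2l1, Bid, Bcl2l11, Bcl2a1a and Bcl2 in all 3 genotypes. The ranges of Mcl1 and Bcl2a1d overlapped in GILZ KO and GILZ TG, and those of Bcl2l11 and Bcl2a1a in GILZ KO.

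Without LPS, the genotypes differed in Bcl2a1b. Here 9 of the 10 members were tested, as Bcl2a1a had too few reads. In GILZ KO against WT only Bcl2a1b was called, lower by a factor of 1.4 (log2 fold change -0.49 ± 0.07, adjusted p = 0.0356, edgeR), where 0.0951% of 12621 genes were called. In GILZ TG against WT only Bcl2a1b was called as well, higher by a factor of 1.42 (0.51 ± 0.07, adjusted p = 0.0108, edgeR), where 0.642% were called. In GILZ KO against GILZ TG it was lower by a factor of 1.99 (-0.99 ± 0.07, adjusted p = 0.000138, edgeR), again as the only member, where 4.94% were called. In all 3 comparisons, which share their libraries, the groups did not overlap. The sum of the Bcl2a1 genes gave -0.47, 0.51 and -0.98 (adjusted p = 0.0354, 0.00909 and 0.000113, edgeR), so the difference did not rest on how reads were divided between copies. For 1 gene taken alone, 3 libraries against 3 allow an exact permutation p of 0.1 at the least.

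These calls for Bcl2a1b were not equally firm. That between GILZ KO and GILZ TG held under every alternative that was run, with adjusted p-values of at most 0.00955 (edgeR, DESeq2 and limma). The call between GILZ KO and WT was lost when any 1 of the 6 libraries was left out, although the log2 fold change stayed between -0.54 and -0.43 (adjusted p = 0.104 to 0.202, edgeR). Fitting all 18 libraries together also lost it (-0.48, adjusted p = 0.120, edgeR), as did log2(TPM + 1) (-0.44, adjusted p = 0.0800, limma). The call between GILZ TG and WT was lost without WT replicate 2 (0.48, adjusted p = 0.0883, edgeR) or GILZ TG replicate 2 (0.47, adjusted p = 0.0611, edgeR). Without both GILZ TG replicates 1 and 2, which had the raised markers of other cells, the log2 fold change was 0.43 (adjusted p = 0.223, edgeR). That leaves 1 GILZ TG library, assumed to vary like the other groups. In this library Bcl2a1b was at 167.9 TPM, above the highest WT library at 129.5 TPM. Its stromal markers summed to 9.75 TPM, within the range of the WT and GILZ KO libraries, but its neutrophil lineage markers (57.9 TPM) and B lineage markers (36.1 TPM) were above the highest of those libraries, at 49.9 and 35.5 TPM. The part of these markers in the result was not tested.

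Of the 8 other members tested without LPS, 0 were called by edgeR in these comparisons. Their log2 fold changes lay between -0.10 and 0.10 in GILZ KO and between -0.14 and 0.44 in GILZ TG, each against WT, and between -0.34 and 0.18 for GILZ KO against GILZ TG. Bcl2a1b included, 1, 2 and 2 members had an unadjusted p under 0.05, and DESeq2 called 1, 1 and 2. The share of all genes at that unadjusted threshold is not given here, so these counts show no excess. Bcl2l1 came nearest to a call between GILZ KO and GILZ TG, at 107.2, 111.0 and 105.9 TPM in GILZ KO and 120.0, 117.7 and 127.4 TPM in GILZ TG. The groups did not overlap, and the log2 fold change of -0.20 ± 0.06 passed the threshold with DESeq2 (adjusted p = 0.0333) but not with edgeR (adjusted p = 0.0809). Bcl2a1b included, the TPM ranges of 2, 4 and 5 of the 10 members did not overlap between the genotypes in the 3 comparisons. Among the genes tested the shares were 17.2%, 14.9% and 28.7%. Bcl2a1a, which was not tested and was near the detection limit, is among the 4 and the 5.

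**Figure D5:**
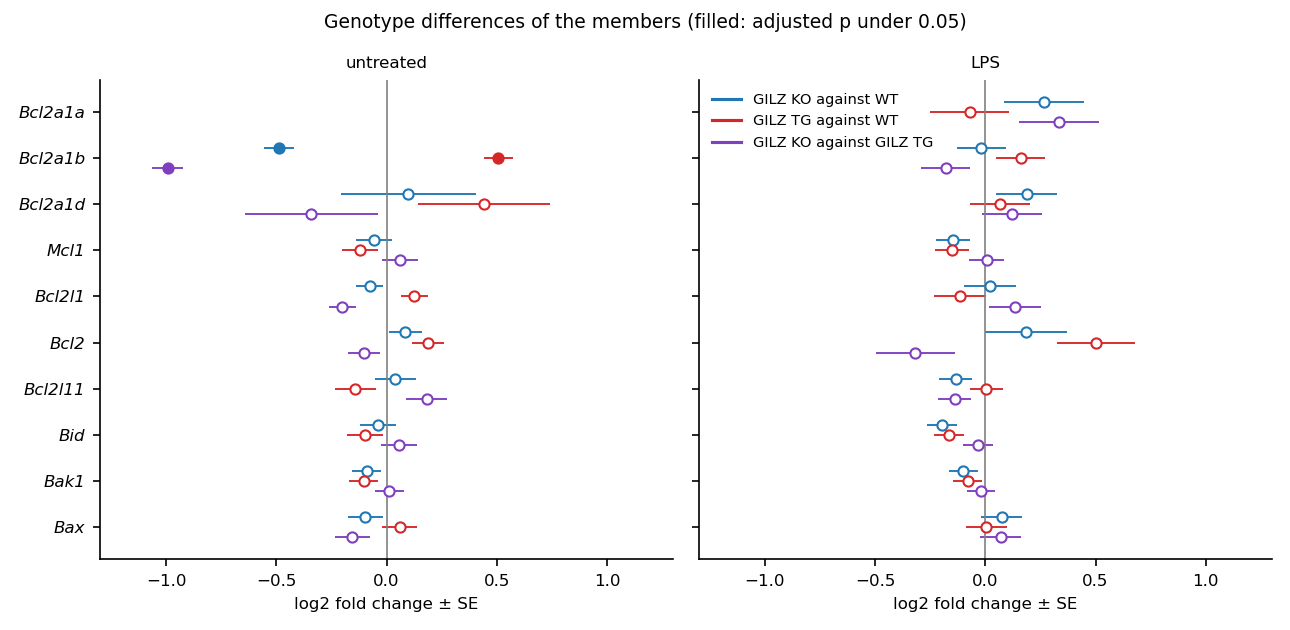
Differences between genotypes of the 10 members as log2 fold change with its SE from edgeR, untreated on the left and after LPS on the right. Filled points have an adjusted p-value under 0.05, and untreated Bcl2a1a was not tested. Only Bcl2a1b without LPS has filled points, at -0.49, 0.51 and -0.99.

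After LPS, 0 of the 10 members were called between genotypes by edgeR, and likewise by DESeq2 and by limma on TPM. At an unadjusted p under 0.05 there was 1 member for GILZ KO and 2 for GILZ TG, each against WT, and 0 for GILZ KO against GILZ TG. Of all 12164 genes 0.0822%, 0.46% and 2.6% were called in these comparisons. These shares are at an adjusted p under 0.05 and are no measure for the unadjusted counts. Bcl2a1b differed by -0.02 ± 0.11, 0.16 ± 0.11 and -0.18 ± 0.11 on the log2 scale (adjusted p = 0.972, 0.537 and 0.419, edgeR). The widest gap to WT after LPS was that of Bcl2 in GILZ TG, at 0.73 to 0.90 TPM against 0.48 to 0.66 TPM, with a log2 fold change of 0.50 ± 0.18 (adjusted p = 0.205, edgeR). Bid was lower by 0.20 ± 0.07 in GILZ KO and by 0.16 ± 0.07 in GILZ TG without overlap with WT, and neither passed the test (adjusted p = 0.416 and 0.281, edgeR). Mcl1 did not overlap with WT in either genotype as well, and Bcl2a1b did not overlap between GILZ KO and GILZ TG. In the 3 comparisons the TPM ranges of 2, 3 and 1 of the 10 members did not overlap. Among all genes tested the shares were 16.3%, 15.2% and 20.6%, so a lack of overlap is not particular to Bid.

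Other genes of the family were called in both directions with LPS, as were genes in general. Of 14 listed genes 10 had enough reads, and 3 were called higher and 4 lower in WT, 4 and 4 in GILZ KO and 2 and 5 in GILZ TG, where 33.2% to 33.6% of all genes were called higher and 35.1% to 35.4% lower. Their median log2 fold change was -0.15, 0.05 and -0.11, against -0.02 for all genes. Bcl2a1c, another A1 copy, rose from 0.670 to 1.06 TPM to 8.94 to 19.7 TPM in WT (log2 fold change 4.68, adjusted p = 1.55e-07, edgeR). Bbc3, which encodes the BH3-only protein PUMA, rose relative to most genes by 0.64 in WT, 0.52 in GILZ KO and 0.93 in GILZ TG (adjusted p = 0.00241, 0.0126 and 8.35e-05, edgeR). In TPM it changed little, at 7.34 to 9.07 before and 7.21 to 9.43 after LPS in WT. It was at 7.18 to 9.44 and 5.51 to 9.07 TPM in GILZ KO and, without overlap, at 7.17 to 8.85 and 9.07 to 9.70 TPM in GILZ TG. In contrast, Bmf, a BH3-only gene, fell from 2.11 to 3.70 TPM to 0.080 to 0.480 TPM in WT, and its log2 fold change was -4.30 in WT, -3.86 in GILZ KO and -4.42 in GILZ TG (adjusted p = 2.75e-08, 1.74e-07 and 1.62e-08, edgeR). Bcl2l12 fell by 1.18, 1.31 and 1.25 on the log2 scale (adjusted p = 5.83e-06, 4.71e-06 and 2.22e-06, edgeR). Pmaip1, the gene of the BH3-only protein NOXA, was at -0.49 in WT and -0.67 in GILZ TG (adjusted p = 0.0180 and 0.00235, edgeR), and at -0.22 in GILZ KO (adjusted p = 0.277, edgeR). Its response in GILZ KO differed by 0.27 from that in WT and by 0.45 from that in GILZ TG (adjusted p = 0.924 and 0.589, edgeR). The missing call in GILZ KO therefore does not show a difference between genotypes. In TPM Pmaip1 was lower after LPS in GILZ KO too, at 10.8 to 13.4 before and 6.50 to 7.30 after. On log2(TPM + 1) 2, 1 and 3 of the 10 genes were higher after LPS in WT, GILZ KO and GILZ TG. Bcl2l10, Hrk, Bcl2l14 and Bcl2l15 were not tested in the LPS comparisons, with at most 0.890 TPM in any library.

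All 16 genes listed for the steps after the mitochondrial membrane were tested. With LPS 9 were called higher and 5 lower in WT, and 10 higher and 5 lower in GILZ KO and in GILZ TG, against the same 33.2% to 33.6% and 35.1% to 35.4% of all genes. The median log2 fold changes were 0.24, 0.23 and 0.22. Birc3 and Birc2, which encode the inhibitor of apoptosis proteins cIAP2 and cIAP1, rose by 2.58 and 1.84 in WT (adjusted p = 2.61e-15 and 5.44e-12, edgeR). The apoptosome gene Apaf1 rose by 1.65 (adjusted p = 2.06e-11, edgeR) and Cycs, for cytochrome c, by 1.1 (adjusted p = 4.80e-10, edgeR). The initiator Casp9 was lower, at 20.4 to 21.6 TPM before and 4.61 to 6.23 TPM after LPS in WT (log2 fold change -1.22, adjusted p = 4.68e-10, edgeR), and so was Birc5, for survivin, a gene of dividing cells (-0.76, adjusted p = 0.00652, edgeR). On log2(TPM + 1) 7, 6 and 7 of the 16 were higher. Between genotypes, untreated or after LPS, 0 genes of the family list and 1 of the downstream list were called by edgeR. Of all genes tested 0.0822% to 4.94% were called, depending on the comparison. The 1 gene was Apaf1 in untreated GILZ KO against GILZ TG (0.25 ± 0.06, adjusted p = 0.0402, edgeR), where 4.94% of 12621 genes were called. In TPM these groups overlapped, at 36.4, 33.0 and 34.6 TPM in GILZ KO and 31.2, 30.8 and 42.5 TPM in GILZ TG, and the mean of GILZ TG (34.9 TPM) was slightly above that of GILZ KO (34.7 TPM). At an unadjusted p under 0.05 there were 0 to 4 genes per list and comparison, and the share of all genes at that threshold is not given here.

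For each member that passed the test with LPS in all 3 genotypes, the non-member genes with the most similar pattern were found by Pearson's correlation of log2(TPM + 1) over the 18 libraries among 9413 genes with a mean of at least 5 TPM. The 6 groups share the LPS contrast, so that a high value describes mainly a similar change with LPS. Bcl2a1b was closest to Gadd45b (0.993) and Vcam1 (0.992), Bcl2a1a to Nlrp3 (0.994) and Vcam1 (0.994), and Bcl2a1d to Slc15a3 (0.998) and Tapbp (0.998). Bcl2 was closest to Fhod1 (0.997) and Arl4c (0.995), Mcl1 to Rap1b (0.982) and Cd47 (0.982), and Bcl2l11 to Med13l (0.980) and Kat6a (0.977). The nearest patterns were less alike for Bid, with Cnep1r1 (0.904) and Relch (0.893), for Bak1, with Tmem106a (0.872) and Ifitm1 (0.864), and for Bcl2l1, with Col4a2 (0.684) and Stambp (0.667).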

How the data were processed

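Poly(A) RNA was sequenced in single reads after directional library preparation. The authors ran the grape-nf pipeline against GRCm38/mm10, with FastQC 0.11.2 for quality control. For each gene the deposited files give an expected count, an estimated number of reads without normalization in the layout of RSEM, and the TPM that the authors' pipeline derived from it. The deposited comparison tables hold fold changes and p-values from DESeq2 1.40.2 and were used for gene symbols only. Symbols were found for 37994 of 38887 genes through these tables and GENCODE M21, and 14 blank rows were left out. Birc2 had 2 rows, and that with the higher mean was used.

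Rounded expected counts were filtered by filterByExpr and scaled by TMM in edgeR 4.0.16 (R 4.3.3), whose quasi-likelihood test gave the p-values. They were Benjamini-Hochberg adjusted over all genes tested, and calls were made at 0.05. LPS comparisons were fitted on all 18 libraries and genotype comparisons on the 9 libraries of a treatment. For the sum, the 4 Bcl2a1 genes were replaced by 1 row. DESeq2 1.42.0 and limma 3.58.1 on log2(TPM + 1) or log2(TPM + 0.1) were alternatives, beside other size factors, no filter, other sets of libraries, replicate as a block and each library left out. The fits were tested on simulated data. The depth sets the precision of low genes, and intervals on reads cover counting error only. The study describes 3 mice per genotype and independent preparations, and the sample labels do not tie libraries to mice. Replicate numbers were not taken as pairs. Members, gene lists and tests were chosen with earlier results of these data known. All members were named, listed genes with fold changes only if they passed the test in an LPS comparison, and the 2 genes most similar to each member. For 1 gene of the downstream list, which is included in the counts, no value of its own is reported here. Protein sequences were not used here. Figures were drawn with matplotlib 3.10.9.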

Additional observations from a re-analysis of the deposited data

Results flagged for a closer look

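The LPS response of Bcl2a1b was larger in GILZ KO than in GILZ TG by 0.79 ± 0.14 on the log2 scale (adjusted p = 0.0271, edgeR), and a test of the difference itself marked it for a closer look. The sum of the Bcl2a1 genes gave 0.87 ± 0.14 (adjusted p = 0.0210, edgeR). The levels after LPS were close, at 1016 to 1110 TPM in GILZ KO and 1116 to 1296 TPM in GILZ TG, while those without LPS were 84.6 to 98.2 and 167.9 to 189.8 TPM.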

How the results depend on the processing

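Under the alternatives other than leaving out 1 library, 97 values of the number of members called stayed within 1.5 times the reported number and 9 did not. For the LPS response of GILZ KO against GILZ TG the number was 2 with DESeq2 and 2 with the replicate block in place of 1, and 0 without GILZ TG replicates 1 and 2, which leaves 1 library in each GILZ TG group. For GILZ KO against WT without LPS it was 0 with all 18 libraries in one fit, 0 with limma at either pseudocount and 0 with the replicate block. For GILZ TG against WT it was 0 without GILZ TG replicates 1 and 2, and for GILZ KO against GILZ TG 2 with DESeq2, both without LPS. With each library left out in turn, these numbers were 0 to 1, 0 to 0 and 0 to 1 for the first 3 of these comparisons. For the sum of the Bcl2a1 genes, the call was lost in the response of GILZ KO against GILZ TG without GILZ TG replicates 1 and 2 (0.79). In GILZ KO against WT it was lost with all 18 libraries (-0.47), limma at both pseudocounts (-0.42 and -0.43) and the replicate block (-0.47), and in GILZ TG against WT without GILZ TG replicates 1 and 2 (0.44). With each library left out these were 0.81 to 0.93, -0.52 to -0.42 and 0.48 to 0.55. After LPS the sum lay at -0.094 to 0.12 in GILZ KO against WT and -0.0017 to 0.21 in GILZ TG against WT. The sign turned on the TPM scale for Bcl2l1 in GILZ TG with LPS (-0.13 with either pseudocount), for Bax with LPS in WT (-0.44 and -0.45), GILZ KO (-0.31 and -0.31) and GILZ TG (-0.52 and -0.52), and for Bcl2a1b in GILZ KO against WT after LPS (0.0040 and 0.0040, and -0.15 to 0.063 with each library left out). Bax in GILZ TG also turned without GILZ TG replicates 1 and 2 (-0.042). Apart from the lower median gene in TPM, the cause was not tested. Using only protein-coding genes, an alternative chosen after seeing the data, changed none of the 12 numbers.

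With the replicate block, Bcl2a1b in untreated GILZ KO against WT was -0.49 (adjusted p = 0.0652, edgeR), and the members added or lost by the block were Bcl2l11 in the response of GILZ KO against GILZ TG (adjusted p = 0.0493, edgeR) and Bax in WT with LPS (adjusted p = 0.0304, edgeR). Libraries were also compared by their deviations in log2(TPM + 1) from the group mean of each gene, over 9423 genes. Between same-numbered LPS and untreated libraries of a genotype, these deviations had correlations of -0.04 to 0.51, of which 5 of 9 were above 0.1. Among the untreated libraries of their genotype, 8 of 9 LPS libraries were closest to their own number. Between same-numbered libraries of different genotypes 4 of 18 correlations were above 0.1.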
